A study of Oryza sativa Japonica Group with 17 samples.

Results

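The genes described here are 6 rice genes for subunits of Polycomb repressive complex 2 (PRC2), chosen by their locus identifiers out of 55986 loci in an expression comparison. They are OsFIE1 (LOC_Os08g04290), OsFIE2 (LOC_Os08g04270), OsEZ1 (LOC_Os03g19480), OsCLF (LOC_Os06g16390), OsEMF2a (LOC_Os04g08034) and OsEMF2b (LOC_Os09g13630). All 6 carried reads and were tested in the authors' deposited table. The series holds 17 samples from leaves of 12-day-old seedlings of japonica rice grown on hormone-free medium. The comparison used here sets 2 RNA-seq libraries of osddm1a/1b against 2 libraries of its wild type, Cr-DJ-1, both in the variety DongJin. The titles of the mutant libraries name both rice copies of DDM1, a remodelling enzyme that gives DNA methyltransferases access to silent chromatin, whereas their mutant characteristic reads osddm1b alone. The labels call the paired libraries repeats without saying whether they came from separate plants, so the p-values measure a spread that may be technical.

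PRC2 places methyl groups on lysine 27 of histone H3, a mark that keeps developmental genes silent. Its core has a catalytic SET-domain subunit (the Enhancer of zeste type, here OsEZ1 and OsCLF), a WD40 subunit of the Extra sex combs type (OsFIE1 and OsFIE2), a zinc-finger subunit of the Suppressor of zeste type (OsEMF2a and OsEMF2b) and a histone-binding MSI1 protein. In rice the WD40 and zinc-finger subunits each have a copy that is imprinted in the endosperm, OsFIE1 and OsEMF2a, where the maternal allele is expressed. OsFIE1 is normally silent outside the endosperm, and its promoter region is known for epialleles that lose DNA methylation and become expressed in vegetative tissue. OsFIE2 and OsEMF2b are expressed in vegetative organs, and the catalytic genes OsEZ1 (also SDG718) and OsCLF (also SDG711) act in the photoperiod control of flowering.

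No direction is stated for the deposited fold changes. Values are given as osddm1a/1b over Cr-DJ-1, the likely reading after turning the deposited sign, because the series' file list puts Cr-DJ before the mutant and OsDDM1b (LOC_Os03g51230) is then the lowered gene, one that fell by 3.27 (log2, SE 0.16) in the authors' deposited table. The other copy, OsDDM1a (LOC_Os09g27060), has a log2 change of -0.14 by the authors' deposited table and did not pass (SE 0.16, adjusted p = 0.511). OsDDM1b therefore gives no independent check of the labels, and each "higher" and "lower" carries this condition. The deposited means sum to 26085293 normalised reads, the size of an average library after scaling, and the 4 size factors lie between 0.888 and 1.15. Of the leaf genes chosen as tissue markers, the light-harvesting gene CAB2R had a mean of 3070 normalised reads in the authors' deposited table. The leaf label and the reads thus go together. CAB2R rose there by 1.62 (log2, SE 0.05), which by mean and fold is about 4636 normalised reads in osddm1a/1b and 1504 in Cr-DJ-1. Of the 3 leaf markers 2 were higher and 1 lower in osddm1a/1b, so 100% were called. Over all tested loci 46.7% were called, and 65.2% of those with a mean of 1000 or more.

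OsFIE1 was read in both mutant libraries and in neither wild-type library. It had 353 and 256 reads in the osddm1a/1b libraries, against 0 and 0 reads in the Cr-DJ-1 libraries, so that the groups did not overlap. These whole numbers were solved from the deposited mean of 148.5 normalised reads and the size factors, which 1 set of 4 whole numbers met among those with a wild-type share of up to 5% of the reads. Sets with a larger wild-type share were not tried. A solution without any wild-type read was to be expected by chance 0.000268 times, and any solution within that share 0.12 times. Which repeat each library is remains unknown, so libraries are called A and B within a genotype.

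Divided by size factors, OsFIE1 stood at 306 and 288 in the osddm1a/1b libraries, a mean of 297.01 ± 12.3 (SD, n = 2), and at 0 in both Cr-DJ-1 libraries. Both mutant libraries were alike, their SD being a small part of their mean. A count of 0 in both wild-type libraries still allows 3 reads over the group, or 1.5 normalised reads, and against this floor OsFIE1 was at least 197-fold higher in osddm1a/1b (log2 7.62). Without Cr-DJ-1 library A this bound was 6.46 on the log2 scale, and without Cr-DJ-1 library B it was 6.77. Such floors cover counting error only. Scaled to the average library, OsFIE1 had 11.4 reads per 1000000 in osddm1a/1b, and the floor in Cr-DJ-1 was 0.0577 per 1000000.

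**Figure D1:**
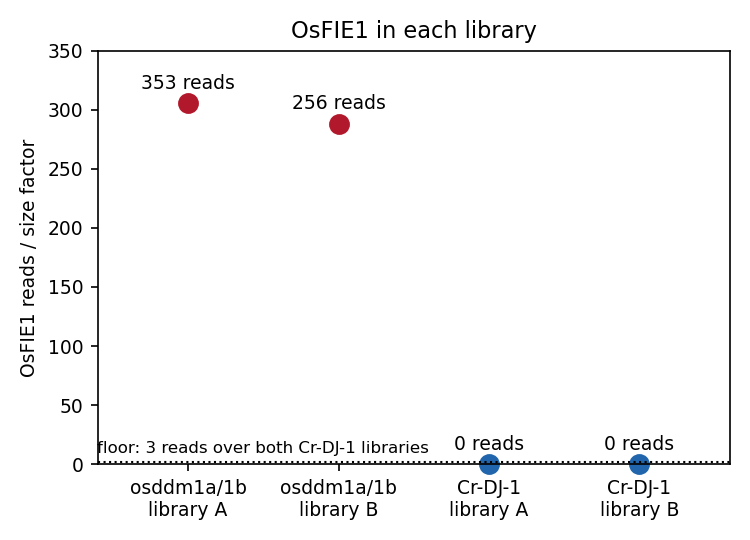
OsFIE1 reads divided by size factor (vertical axis) in each of the 4 RNA-seq libraries, with osddm1a/1b on the left in red and Cr-DJ-1 on the right in blue. The mutant libraries lie at 306 and 288, both wild-type libraries lie at 0, and the dotted line is the floor of 1.5 normalised reads.

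The deposited fold change of OsFIE1 is smaller than this bound, because the authors' model moderates changes towards 0. The authors' deposited table gives a log2 change of 5.15 for OsFIE1 (SE 0.33, adjusted p = 2.67e-54), which is 35.5-fold with a 95% interval of 22.8- to 55.4-fold. Taken with the deposited mean, that fold would put Cr-DJ-1 at 8.13 normalised reads, whereas none was counted. The fitted fold depends on the moderation and is no lower bound. An exact permutation test over 2 against 2 libraries cannot go below p = 0.333 (two-sided), which is the value it gave for OsFIE1.

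OsFIE1 thus belonged to the loci with reads in the mutant alone, and it was not alone in this. Of 29212 tested loci, 233 (0.798%) had a larger log2 change than OsFIE1 in the authors' deposited table. At means of 119 to 186 normalised reads, around that of OsFIE1, lay 1844 other tested loci, of which 49 had a larger log2 change. In this group 83 loci had a log2 change over 3 and a solution without wild-type reads, and their deposited changes all lay between 4.85 and 5.45. OsFIE1, at 5.15, fell inside that narrow band, which the limits on mean and wild-type reads all but set in advance. Of the 49 loci with a larger log2 change, 39 also had a solution without wild-type reads. A larger deposited change is thus not by itself a larger rise. Over the wider range of means from 100 to 1000, 197 of 391 loci with a log2 change over 3 had such a solution, against 0.192 to be expected by chance.

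The 2 loci closest to OsFIE1 in mean and change are given as a description, since at this mean the choice all but fixes the pattern of reads. LOC_Os07g19140, with a log2 change of 5.14 in the authors' deposited table, had 327 and 275 reads in the osddm1a/1b libraries and 0 and 0 in the Cr-DJ-1 libraries. LOC_Os01g24390, at 5.14 in the authors' deposited table, had 333 and 266 reads in osddm1a/1b and 0 and 0 in Cr-DJ-1. Likeness was taken from a single comparison over 4 libraries, and the reference table gives no name for either identifier.

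OsFIE2, the vegetative copy of the WD40 subunit, was lower in the mutant. The authors' deposited table gives OsFIE2 a mean of 2482 normalised reads over the 4 libraries and a log2 change of -0.27 (SE 0.06, adjusted p = 1.16e-05). Mean and fold together put OsFIE2 at about 2255 normalised reads in osddm1a/1b and 2710 in Cr-DJ-1, a change of -16.8%. Values per library could not be solved for genes with this many reads, so the overlap of the groups is unknown for OsFIE2 and for the 4 genes that follow. Levels of different genes are not set against each other, since the table holds no transcript lengths.

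Both WD40 genes therefore passed the test in opposite directions. The log2 change of OsFIE1 exceeded that of OsFIE2 by 5.42, with a 95% interval of 4.77 to 6.07 that takes both standard errors as independent. Both are the deposited, moderated changes. The solved reads put the rise of OsFIE1 at 7.62 or more, so this interval does not bound the unmoderated difference. OsFIE1 and OsFIE2 are similar in sequence, and the sources used here do not say how reads that match both were counted. In the Cr-DJ-1 libraries, where OsFIE2 was read at about 2710 normalised reads, no read was assigned to OsFIE1. The part of reads shared between both genes was not tested.

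Neither gene of the zinc-finger pair passed the test. OsEMF2a, the copy imprinted in the endosperm, had a mean of 1363 normalised reads in the authors' deposited table and a log2 change of -0.01 (SE 0.07, adjusted p = 0.903). Mean and fold put OsEMF2a at about 1356 normalised reads in osddm1a/1b and 1369 in Cr-DJ-1. OsEMF2a was thus read in leaves of both genotypes, unlike OsFIE1. Its 95% interval, from -0.16 to 0.13 on the log2 scale, leaves room for a change of up to 0.896-fold or 1.1-fold.

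OsEMF2b, the copy needed in vegetative and floral development, stood close to its partner. In the authors' deposited table OsEMF2b had a mean of 1530 normalised reads and a log2 change of -0.08 (SE 0.07, adjusted p = 0.395). Mean and fold put OsEMF2b at about 1488 normalised reads in osddm1a/1b and 1572 in Cr-DJ-1. The difference between the changes, OsEMF2a minus OsEMF2b, was 0.065 with a 95% interval of -0.14 to 0.27, which includes 0. A change within these intervals remains possible for both genes.

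The catalytic genes moved in opposite directions and by small amounts. In the authors' deposited table OsCLF rose by 0.21 (log2, SE 0.08, adjusted p = 0.0218), a change of 15.6%. Its mean of 1306 normalised reads and its fold put it at about 1400 in osddm1a/1b and 1211 in Cr-DJ-1. In the same authors' deposited table OsEZ1 fell by 0.21 (log2, SE 0.09, adjusted p = 0.0381), a change of -13.7%. Its mean of 1119 normalised reads and its fold put it at about 1036 in osddm1a/1b and 1201 in Cr-DJ-1.

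The difference between the catalytic genes, OsEZ1 minus OsCLF, was -0.42 on the log2 scale, with a 95% interval of -0.66 to -0.19 that excludes 0. The call for OsEZ1 is narrow. It was lost when p-values were adjusted over every locus with a p (adjusted p = 0.054) and when changes were taken relative to the median of loci with at least 100 normalised reads (-0.19, adjusted p = 0.0683).

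**Figure D2:**
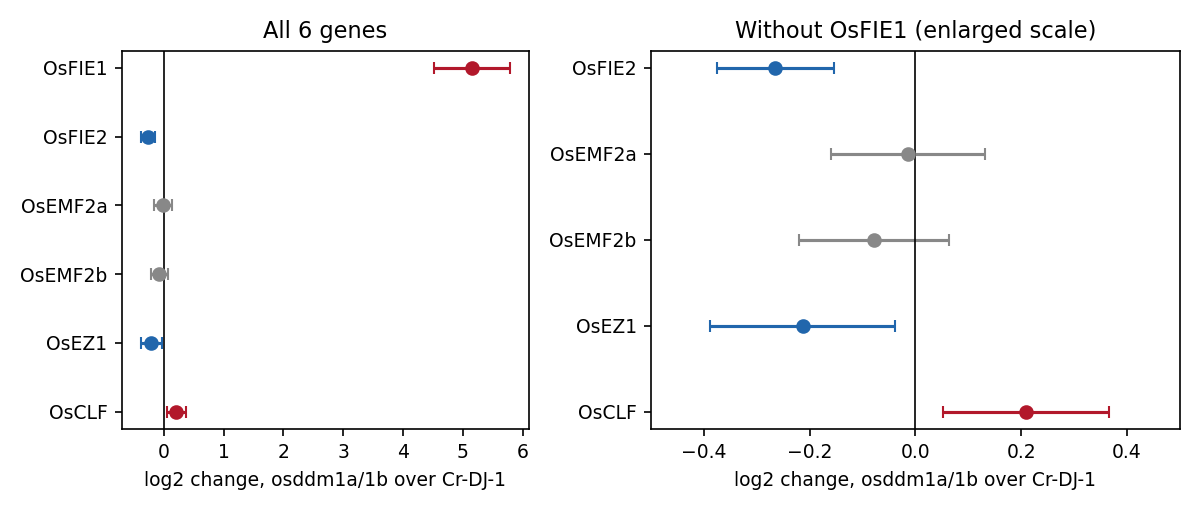
Log2 change of each gene, osddm1a/1b over Cr-DJ-1 (horizontal axis), with 95% intervals as bars, for all 6 genes (left panel) and on an enlarged scale without OsFIE1 (right panel). Red points are higher, blue points lower and grey points not past an adjusted p of 0.05, and OsFIE1 at 5.15 lies apart from the other genes, which all lie between -0.27 and 0.21.

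Of the 6 PRC2 genes, OsFIE1 and OsCLF were higher and OsFIE2 and OsEZ1 lower in the authors' deposited table, while neither EMF2 gene passed. Among all tested loci 46.7% were called, 27.6% as higher and 19.1% as lower, so 4 calls among 6 genes differ little from the table as a whole. At an adjusted p below 0.01 the calls were 2 of 6 (all loci 37.3%), with adjustment over every locus with a p 3 of 6 (31.2%) and under Bonferroni adjustment 1 of 6 (21.0%). The 5 genes other than OsFIE1 all had means over 1000 normalised reads, and 3 of these 5 were called. At that level 65.2% of 6759 loci were called, with a median absolute change of 0.21 on the log2 scale. The changes of OsFIE2, OsEZ1 and OsCLF, between 0.21 and 0.27 in absolute size, were thus of the usual size for genes read this often. The median log2 change of the 6 genes was -0.05, against 0.05 over all tested loci.

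The chromosomal surroundings of OsFIE1 did not change as it did. OsFIE1 and OsFIE2 are separated in the order of locus numbers by a single listed locus, LOC_Os08g04280. This locus, by the authors' deposited table, rose by 0.19 (log2, SE 0.06, adjusted p = 0.00389). The locus on the other side of OsFIE1, LOC_Os08g04300, was lowered in the authors' deposited table, where it fell by 0.87 (SE 0.19, adjusted p = 2.89e-05). Among the 11 other loci within 5 places of either FIE gene, 4 had no read in any library, 2 were higher, 3 lower and 2 did not pass. These 5 calls are 71.4% of the 7 tested loci, against 46.7% over all tested loci. The largest change among them was that of LOC_Os08g04230, 6 places before OsFIE1, with 23 and 7 reads in the osddm1a/1b libraries and 85 and 52 in the Cr-DJ-1 libraries. In the authors' deposited table it fell by 1.58 (log2, SE 0.35). The highest change in this neighbourhood apart from OsFIE1 was 0.53, at LOC_Os08g04340, in the authors' deposited table.

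**Figure D3:**
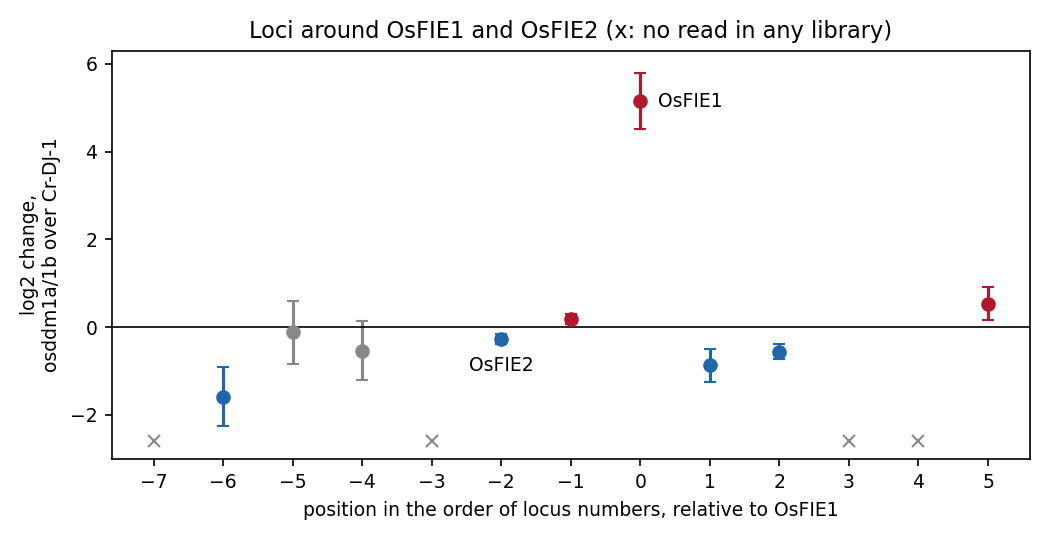
Log2 change, osddm1a/1b over Cr-DJ-1 (vertical axis), with 95% intervals for the loci around OsFIE1 and OsFIE2 in the order of their locus numbers (horizontal axis, 0 is OsFIE1, -2 is OsFIE2). Red is higher, blue lower, grey not past 0.05, and crosses at the bottom mark loci without reads. OsFIE1 stands at 5.15 and every other tested locus shown lies between -1.58 and 0.53.

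Around all 6 genes together, 30 of 51 neighbouring loci were tested, and 6 were higher and 8 lower in the authors' deposited table. These are 46.7% of the tested neighbours, the same share as among all tested loci. OsEMF2a had sparsely read surroundings. Of its 10 neighbours 3 had no read, 2 were tested, and neither of these passed. OsEZ1 lay among loci of which 9 of 10 were tested and 3 rose. For OsCLF 1 neighbour rose and 2 fell, and for OsEMF2b 3 fell.

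Other genes of the Polycomb system had log2 changes between -0.52 and 0.29. Among 6 partners and antagonists, the authors' deposited table has 2 as higher, 1 as lower and 3 that did not pass, so 50% were called, against 46.7% over all tested loci. Their median log2 change was -0.05, against 0.05 over all tested loci. OsLHP1, which encodes a chromodomain protein that binds the PRC2 mark, stood higher in the authors' deposited table, by 0.29 (SE 0.10, adjusted p = 0.012). LOC_Os01g51300 rose by 0.24 (SE 0.04) according to the authors' deposited table, while LOC_Os12g34850 fell by 0.52 (SE 0.09). The names chosen for these identifiers were not found in the reference table. OsMSI1, the histone-binding subunit of the PRC2 core, in the authors' deposited table stood at -0.06 (SE 0.07, adjusted p = 0.49). OsJMJ705, an H3K27 demethylase gene, stood at -0.03 there (SE 0.11, adjusted p = 0.84), and neither passed.

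Genes of classes that Polycomb represses in plants, the class I KNOX and floral MADS-box genes, formed another list, together with DL, which belongs to neither class. The authors' deposited table holds a test for 17 of the 19 listed genes, of which 8 were higher, 1 was lower and 8 did not pass. DL was among those that did not pass, at -0.20 (log2, SE 0.27, adjusted p = 0.577). The calls were 52.9% of the tested genes, against 46.7% over all tested loci (27.6% higher and 19.1% lower). The median log2 change of the tested genes was 0.76, against 0.05 over all tested loci. The share called differs with read level, being 65.2% at means of 1000 or more, and the highest mean in this list was 159. No share matched to the read level of this list was computed. In the authors' deposited table the floral B-class genes OsMADS16 and OsMADS4 rose by 1.8 (SE 0.21) and 2.1 (SE 0.31). There too, OsMADS17, of the AGL6 type, rose by 2.24 (SE 0.27) and the KNOX gene OSH71 by 2.0 (SE 0.33). None of these 4 came near the deposited change of OsFIE1, though deposited changes are moderated more strongly for genes with few reads. OsMADS8, a SEPALLATA-type gene named after its values were seen, shared the pattern of OsFIE1 at a far lower level, with 18 and 16 reads in osddm1a/1b and 0 and 0 in Cr-DJ-1. Its rise in the authors' deposited table was 1.36 (log2, SE 0.36). The gene called lower was OsMADS3, with 10 and 9 reads in osddm1a/1b and 28 and 37 in Cr-DJ-1. By the authors' deposited table OsMADS3 fell by 1.07 (log2, SE 0.37).

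Genes typical of endosperm, the tissue where OsFIE1 is normally expressed, gave a mixed picture. The authors' deposited table lists 15 of 16 chosen markers, of which 12 were tested, 3 were higher, 3 lower and 6 did not pass. The 50% called stand against 46.7% over all tested loci (27.6% higher and 19.1% lower). Their median log2 change was 0.15, against 0.05 over all tested loci. PPDKB, a pyruvate orthophosphate dikinase gene, by the authors' deposited table fell by 0.55 (SE 0.06), and AGPS2, which encodes a small subunit of ADP-glucose pyrophosphorylase, rose by 0.15 (SE 0.04). Their means over the 4 libraries were 1994 and 4203 normalised reads, so these 2 markers were also read in leaves. The other lower markers were read there too, LOC_Os01g44220 at a mean of 1312 and GluA2, a glutelin gene, at 224. They fell by 0.28 (log2, SE 0.08) and 0.40 (SE 0.17) in the authors' deposited table. ISA1 (mean 905), LOC_Os08g09230 (753) and LOC_Os02g32660 (116) were likewise read in leaves and did not pass. Calls and median of this list thus rest in part on genes read in leaves. The other markers named by smallest adjusted p, LOC_Os02g15350 and LOC_Os03g38610, were higher in the authors' deposited table, by 2.2 (SE 0.38) and 1.45 (SE 0.37). The names chosen for these identifiers were not found in the reference table.

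A few endosperm markers with few reads were singled out after their values were seen. GluA1, a glutelin gene, had 6 and 3 reads in osddm1a/1b and 8 and 2 in Cr-DJ-1. The glutelin gene GluA2, read more often, was among the lower markers above. Wx, which encodes granule-bound starch synthase, had 12 and 5 reads in osddm1a/1b and 6 and 6 in Cr-DJ-1. The marker LOC_Os07g08420 had 9 and 13 reads in osddm1a/1b and 10 and 9 in Cr-DJ-1, with a log2 change of 0.09 (SE 0.38). The groups overlapped for GluA1, Wx and LOC_Os07g08420. The marker LOC_Os05g41970 had 0 and 2 reads in osddm1a/1b and 0 and 0 in Cr-DJ-1, too few to be tested. OsNF-YB1, an endosperm transcription factor gene, had 1 and 3 reads in osddm1a/1b and 0 and 0 in Cr-DJ-1, too few to be tested.

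Summed over the 8 endosperm markers whose reads could be solved, osddm1a/1b had 84.9 and 91.2 normalised reads and Cr-DJ-1 23.6 and 20.2. Marker reads were solved up to a mean of 100 normalised reads, so the sum leaves out every marker read more often. Left out are all 3 lower markers and AGPS2, which was higher. By mean and fold, GluA2 alone stood at about 193 normalised reads in osddm1a/1b and 254 in Cr-DJ-1. Most of the difference within the sum lay in LOC_Os02g15350, with 47 and 39 reads in osddm1a/1b and 2 and 1 in Cr-DJ-1, and in LOC_Os03g38610, with 23 and 15 against 0 and 0. No read in Cr-DJ-1 was found for LOC_Os03g38610, OsNF-YB1, LOC_Os05g41970 and LOC_Os12g08780. Reads can be solved for a locus with at least 1 read, so a locus without wild-type reads has mutant reads by construction, and LOC_Os12g08780 had a single read in all. In leaf samples, a change in the number of cells of a type and a change of RNA per cell cannot be told apart, and the part of other cell types in the rise of OsFIE1 was not tested.

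**Figure D4:**
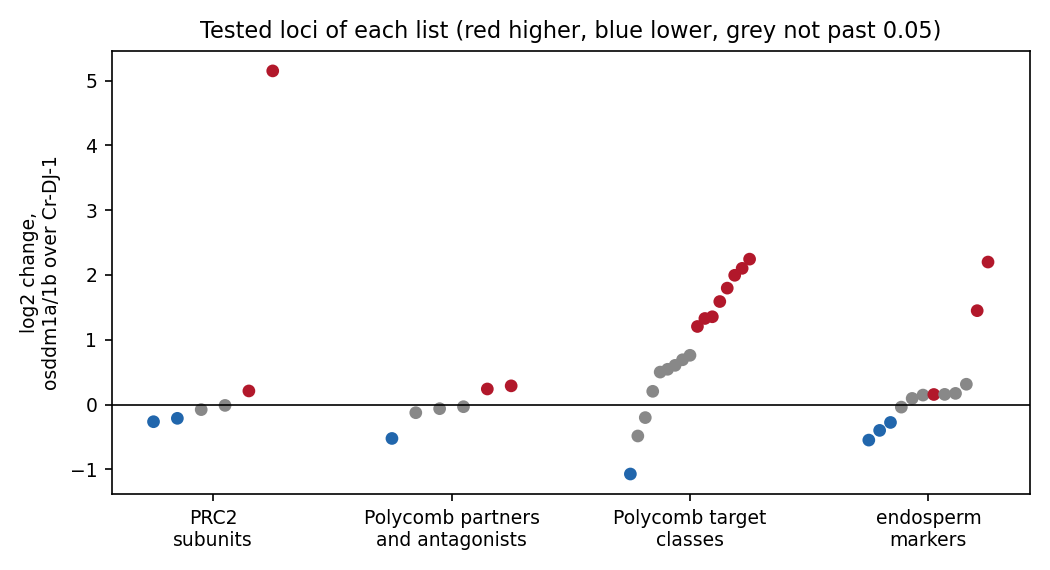
Log2 change, osddm1a/1b over Cr-DJ-1 (vertical axis), of every tested locus in each of 4 lists, sorted within each list. Red is higher, blue lower and grey not past an adjusted p of 0.05. OsFIE1 at 5.15 lies above all tested loci of the other 3 lists, whose highest value is 2.24. The changes are moderated, more strongly for genes with few reads.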

How the data were processed

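RNA-seq of 2 osddm1a/1b and 2 Cr-DJ-1 libraries was used, grouped by title. The authors deposited a table of their comparison without a header, and its columns were identified from the values. The signal is the deposited mean over the 4 libraries of counts divided by size factors. The log2 values are the authors' fold changes, moderated towards 0, with a standard error as another column. The deposited table ends with a score (log2 change over standard error), a p-value and its Benjamini-Hochberg adjusted form. DESeq2, TopHat and HTSeq are named without roles per the submitters' processing notes, and the sources used here give no genome build. The table lists 55986 loci, 14584 of them without reads; 29212 loci were tested, the lowest at a mean of 2.88. Total reads per library are unknown.

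Nothing was refitted; adjusted p-values below 0.05 in the authors' table, from DESeq2 by the form of its columns, were read as calls. Size factors were taken from the spacing of the lowest means (1 read in 1 library) and refined on 1856 means. Whole reads were accepted where 1 solution existed and fewer than 0.25 were expected by chance. On simulated reads, 40 of 40 cases like OsFIE1 and 91 of 116 cases with means under 100 were recovered, with 0 wrong in each. The cases like OsFIE1 were drawn with few wild-type reads and solved under the same 5% limit. They could therefore not test that limit. Group levels were otherwise computed from mean and fold. The 95% intervals come from the standard errors. Pairs were compared by the difference of their log2 changes.

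The genes, lists and tests were chosen with earlier results of these data known. Named genes were all 6 genes, per further list up to 4 with the smallest adjusted p, at most 2 higher and 2 lower neighbours, and the 2 loci closest to OsFIE1 in change. LOC_Os08g04280, LOC_Os08g04340, DL, OsMADS3, OsMADS8, OsMSI1, OsJMJ705, GluA1, GluA2, Wx, ISA1, OsNF-YB1, LOC_Os01g44220, LOC_Os07g08420, LOC_Os08g09230, LOC_Os02g32660, LOC_Os05g41970, LOC_Os12g08780 and OsDDM1a were named outside this rule, after their values were seen. A list name was accepted where the reference gene table (assembly ASM3414082v1) holds it on the same chromosome and within 0.1 of its length from the place the locus number gives. Of the 6 genes this bears out OsEZ1; the other names, and those of OsDDM1a and OsDDM1b, are those in general use for these loci. Peak and small RNA lists give coordinates without locus names and were not used here, and no sequence was printed. Alternatives were other adjustments, a stricter threshold, scaling, a wider neighbourhood and leaving out libraries. Calculations used Python 3.11.15, pandas 2.3.3 and statsmodels 0.14.6.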

Additional observations from a re-analysis of the deposited data

How the results depend on the processing

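At an adjusted p below 0.01, 2 of the 6 PRC2 genes were called in place of 4. Under Bonferroni adjustment of the DESeq2 p-values over all tested loci only OsFIE1 kept its call, while OsFIE2 (-0.27) reached an adjusted p = 0.0722, OsEZ1 (-0.21) an adjusted p = 1 and OsCLF (0.21) an adjusted p = 1. The same adjustment left 4 of 9 calls among target classes, 2 of 6 among endosperm markers and 4 of 14 among neighbours, since fewer loci pass it by construction. These lists held 17, 12 and 30 tested loci, and over all tested loci 21.0% were called under this adjustment. OsEZ1 (-0.21) also lost its call with adjustment over every locus with a p (0.054), and at -0.19 relative to the median (0.0683). With 10 neighbours on either side, 25 of 58 tested loci (43.1%) were called, against 46.7% over all tested loci. The OsFIE1 change was at least 7.62 (log2) from unmoderated reads, and 6.46 to 7.67 (88.2- to 203-fold) leaving out 1 library; the lowest values lacked a Cr-DJ-1 library, which raises the floor. With the sign as deposited, pair differences turn to -5.42 (OsFIE1 minus OsFIE2), -0.065 (OsEMF2a minus OsEMF2b) and 0.42 (OsEZ1 minus OsCLF). In the other 34 of 53 alternatives named genes kept their side of the threshold, and OsEMF2a, which is not called, changed sign relative to the median (0.0098). Counts among them fell at most to 3 of 4 PRC2 calls, 2 of 3 for partners, 8 of 9 for target classes, 5 of 6 for endosperm markers and 10 of 14 for neighbours. No paired analysis was possible because the file holds no values per named library. Depth limits OsFIE1 in Cr-DJ-1 to a bound.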
